A study of Mus musculus with 18 samples.

Results

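The genes described here are 7 mouse genes that lie in families of near-identical copies: Srp54a, Srp54b, Fam177a and 1700047I17Rik2 on chromosome 12, Plac9b on chromosome 14, Dynlt1c on chromosome 17 and Gm14288 on chromosome 2. They are 7 of the 24054 genes in each deposited table, and they were chosen by name because earlier results of these data showed them shifted between genotypes in the hypothalamus. All 7 passed the filter on low values in each tissue, which asked for 0.5 CPM or more in 3 of its 6 libraries (CPM are a gene's reads scaled to library size, here after the authors' normalization). In total 13872 genes passed in all 3 tissues. The question was whether the hypothalamus shift recurs in the pituitary and thyroid of the same mice. The hypothalamus values chose the genes, so they are given as a description with no test, and tests are given for pituitary and thyroid only. In the hypothalamus each of the 7 was lower in all K146Q than in all WT mice. Of the 15761 genes tested there 4.95% showed this order and 4.2% the reverse, while limma with adjustment called 0% of them (645 genes at an unadjusted p under 0.05, 0 adjusted calls by edgeR and 9 by DESeq2).

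RNA was sequenced from hypothalamus, pituitary and thyroid of 6 untreated male mice aged 3 months, 18 libraries in all. WT mice 1, 2 and 43 and K146Q mice 60, 62 and 83 were all of the strain labelled C57BL/Ntac, and each mouse number recurs in the 3 tissues. K146Q mice carry a whole-body knock-in that replaces a sumoylated lysine of thyroid hormone receptor beta (gene Thrb), were homozygous, and came from a line backcrossed at least 3 times to its own background, while WT mice were of the same substrain. The sources used here do not say whether the WT mice were littermates, so the Thrb mutation and any other inherited difference between the 2 groups of mice cannot be told apart in this design.

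Tandem and segmental duplications leave several copies of a gene with almost the same sequence, and inbred mice can differ in how many copies they carry. A short read from such a gene can match several copies equally well, and the counting step then has to divide it among them or discard it. SRP54 is the GTP-binding subunit of the signal recognition particle, which binds signal peptides as they leave the ribosome and brings the ribosome to the endoplasmic reticulum. Plac9 genes encode small secreted proteins, Dynlt1 genes encode a light chain of the dynein motor, and Gm14288 is a predicted gene in a large cluster of KRAB zinc finger genes. The functions of Fam177a and of its copy 1700047I17Rik2 are little described.

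The reference sequences show how far reads of these genes can be told apart. They come from GENCODE M21 transcripts with their GRCm38 positions and are printed in the direction of transcription. Over their whole coding length of 1512 bases Srp54a and Srp54b had 0 mismatches, and each had 6 mismatches to Srp54c. Coding exon 10 holds 3 of these 6 positions, which is why it is shown, with the differing bases in capitals. It lies at chr12:55102468-55102554 in Srp54a, chr12:55177528-55177614 in Srp54b and chr12:55252772-55252858 in Srp54c, all on the plus strand.
Srp54a: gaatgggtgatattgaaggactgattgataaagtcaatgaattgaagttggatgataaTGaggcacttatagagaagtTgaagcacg
Srp54b: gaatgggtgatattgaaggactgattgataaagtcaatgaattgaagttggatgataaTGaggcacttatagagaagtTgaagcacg
Srp54c: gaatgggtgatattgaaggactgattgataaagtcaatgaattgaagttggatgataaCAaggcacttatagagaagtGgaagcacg

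Fam177a and 1700047I17Rik2 were identical over all 621 coding bases, and Plac9b and Plac9a over all 324. Coding exon 2 of Fam177a (chr12:55130616-55130789, plus strand) and coding exon 3 of Plac9b (chr14:26168280-26168403, minus strand) are shown as examples of exons whose sequence is the same, letter for letter, in the other copy. No base is in capitals because none differs.
Fam177a: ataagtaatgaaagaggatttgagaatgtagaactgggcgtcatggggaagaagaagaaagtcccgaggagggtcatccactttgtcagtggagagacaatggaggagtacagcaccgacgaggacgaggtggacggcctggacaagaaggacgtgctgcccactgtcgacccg
Plac9b: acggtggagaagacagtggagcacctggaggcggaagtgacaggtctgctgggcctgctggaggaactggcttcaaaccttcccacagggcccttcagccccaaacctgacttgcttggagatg

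Dynlt1c, Dynlt1a and Dynlt1f were identical over all 339 coding bases, and Dynlt1b differed from them at 1 base, in coding exon 1 (chr17:6601810-6601836 in Dynlt1c and chr17:6430212-6430238 in Dynlt1b, both on the plus strand). That base is in capitals.
Dynlt1c: atggaagacttccaggcctcCgaggag
Dynlt1b: atggaagacttccaggcctcAgaggag

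Gm14288 has its closest copy in Gm14440, a gene of the same chromosome 2 cluster, with 0 mismatches in the 192 coding bases that both annotated transcripts hold. Coding exon 2 of Gm14288 (chr2:175792738-175792864, minus strand) is identical in Gm14440 and encodes a KRAB box, the repressor domain of such zinc finger proteins.
Gm14288: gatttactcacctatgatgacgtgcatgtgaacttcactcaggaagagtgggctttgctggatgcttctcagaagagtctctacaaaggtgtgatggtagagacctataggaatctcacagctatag

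Counted over whole annotated transcripts, the share of 50-base windows that also occur in a transcript of another gene was 100% for 1700047I17Rik2 and Gm14288, 98.5% for Fam177a, 96.6% for Plac9b, 89.4% for Srp54b, 88.9% for Dynlt1c and 70.5% for Srp54a. For Srp68, a subunit gene of the same particle with no copy, the share was 0%, and for Thrb it was 0.122%. The values of single copies below therefore rest on how the authors' software divided shared reads. A sum over the copies does not depend on that division among the copies summed, but it can depend on division with other genes. Gm9780 holds 65.5% of the windows of Plac9b and 77.0% of those of Plac9a. Ppp2r3c holds 30.6% of the windows of Fam177a, and Zfp968 holds 38.0% of those of Gm14288. These genes are in none of the sums.

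The tissue labels fit the marker genes, and the markers also differed between genotypes. The summed level of 7 thyroid markers was 299314 to 361023 CPM in WT and 89844 to 137328 CPM in K146Q thyroids, against at most 207 CPM in any hypothalamus or pituitary library, and the 8 pituitary markers summed to 133729 to 257090 CPM in WT and 110072 to 119939 CPM in K146Q pituitaries, without overlap. Of these 8, Tshb and Cga, the subunit genes of thyrotropin, rose in the K146Q pituitary and Prl, the prolactin gene, fell. In the thyroid the adipose markers (5 of 5 genes) and the parathyroid and C cell markers (3 of 3) fell in K146Q mice, with summed levels of 255 to 399 CPM in WT and 35.2 to 70.4 CPM in K146Q for the first list and 5429 to 8152 CPM and 657 to 1811 CPM for the second. In bulk tissue fewer cells of a type and less RNA per cell cannot be told apart, and the part of these markers in the pituitary and thyroid results below was not tested. Thrb itself was detected in every library, with a log2 difference of -0.02 in hypothalamus, 0.65 in pituitary and -1.33 in thyroid, and the deposited gene values do not show the mutated base. The libraries held 14902330 to 21230050 reads, so 3 reads correspond to 0.133 to 0.190 CPM.

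The shift recurred for 5 of the 7 genes. Srp54a, Srp54b, Fam177a, 1700047I17Rik2 and Plac9b fell in the K146Q pituitary, where 3.5% of the 15589 genes tested fell, and the same 5 fell in the K146Q thyroid, where 18.1% of the 15200 genes tested fell (limma, adjusted p under 0.05). In the pituitary only Srp54a and Srp54b kept the call without mouse 1, 2, 43, 60 or 62, so that the count of 5 was 2 in each of these cases, and it was 3 with no filter on low values or without limma's trend. The calls were 991 higher and 546 lower in pituitary and 2992 higher and 2747 lower in thyroid, and with library totals taken without the 10 highest genes they were 837 and 879 in pituitary and 2496 and 3613 in thyroid. The median log2 fold change of the 7 genes was -0.62 in pituitary beside -0.01 over all genes and -0.87 in thyroid beside -0.03. Genes that fell in both tissues made up 0.908% of the 13872 genes tested in all 3. For each of these 5 genes all K146Q mice were also below all WT mice in each of the 3 tissues, which held for 0.267% of genes (37 of 13872), although the hypothalamus share of this pattern is fixed by how the genes were chosen. In the thyroid alone 25.7% of genes showed it and 26.6% the reverse order, in the pituitary alone 14.3% showed it, and 15.4% of genes had a lower log2 mean in K146Q mice in all 3 tissues. Dynlt1c and Gm14288 were not called in either tissue. The 5 genes are not 5 separate observations, since they come from 2 loci and share sequence, and the tissues come from the same mice.

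**Figure D1:**
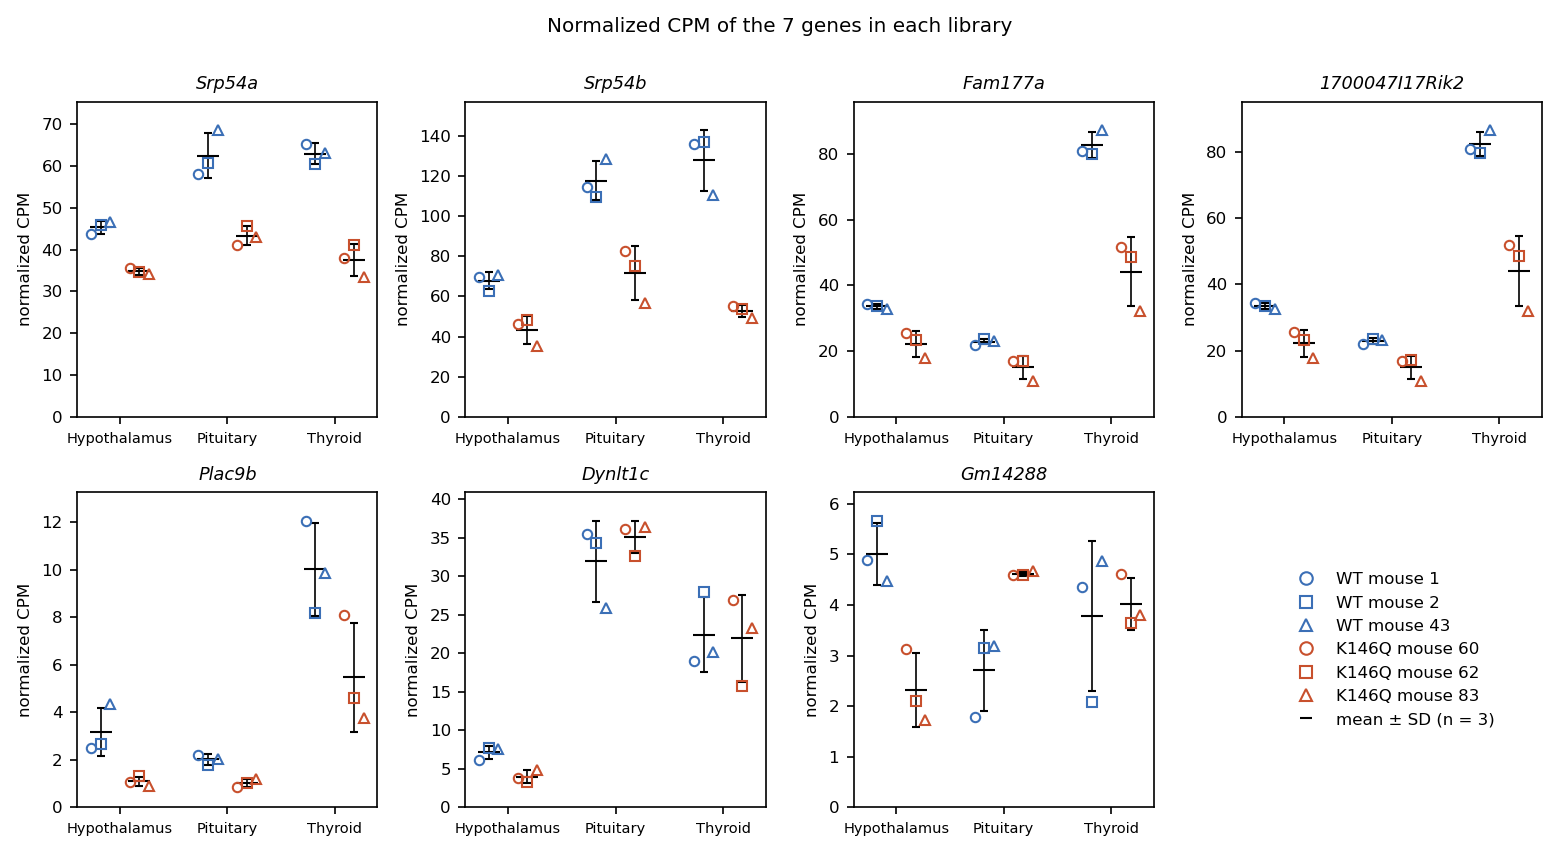
Normalized CPM (vertical axes, starting at 0) of the 7 genes in the 18 libraries, by tissue. Blue symbols are WT mice and orange symbols K146Q mice, each mouse with its own symbol in every tissue, and bars are the mean ± SD of 3 mice. For Srp54a, Srp54b, Fam177a, 1700047I17Rik2 and Plac9b the orange symbols lie below the blue ones in each tissue, while for Dynlt1c and Gm14288 this is so in the hypothalamus only.

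Srp54a, the first of the 3 Srp54 copies along chromosome 12 (55080262 to 55115367, plus strand, GRCm38), had hypothalamus values of 43.6, 45.9 and 46.6 CPM for WT mice 1, 2 and 43 in that order, and of 35.7, 34.7 and 34.1 CPM for K146Q mice 60, 62 and 83. The same order of mice is kept for all genes. In the pituitary the WT values were 58.2, 60.7 and 68.5 CPM and the K146Q values 41.2, 45.6 and 43.1 CPM. In the thyroid they were 65.3, 60.4 and 63.1 CPM in WT and 37.9, 41.1 and 33.5 CPM in K146Q mice. No K146Q library reached the lowest WT library of its tissue. The fold change on the log2(CPM + 0.5) scale was -0.52 in pituitary (standard error 0.087, adjusted p = 0.00554) and -0.74 in thyroid (standard error 0.095, adjusted p = 9.85e-04), beside a difference of -0.38 in the hypothalamus.

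Srp54b (55155104 to 55189573, plus strand) carried the larger shift of the 2. Its hypothalamus values were 69.8, 62.9 and 70.8 CPM in WT and 46.4, 48.1 and 35.5 CPM in K146Q mice. Its pituitary values were 115, 110 and 128 CPM in WT and 82.7, 75.1 and 56.8 CPM in K146Q mice. Thyroid values were 136, 137 and 110 CPM for WT and 55.1, 53.9 and 49.5 CPM for K146Q mice, so the K146Q mean was 41.4% of the WT mean. The log2 fold changes were -0.73 in pituitary (standard error 0.13, adjusted p = 0.00765) and -1.26 in thyroid (standard error 0.10, adjusted p = 1.61e-04), and the hypothalamus difference was -0.65. Of all 7 genes, Srp54b alone was called for a difference in genotype effect between the 2 tested tissues. Its pituitary effect minus its thyroid effect was 0.53 on the log2 scale (95% interval 0.14 to 0.93, adjusted p = 0.0436), in a comparison that called 29.3% of 14333 genes. This call is lost without mouse 1, 2, 60 or 62 (adjusted p = 0.130, 0.165, 0.118 and 0.145), and the difference ranged from 0.43 to 0.70 when mice were left out 1 at a time.

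Srp54c (55230168 to 55263836, plus strand), the remaining copy and not among the 7 genes, shifted less in hypothalamus and pituitary than in thyroid. Its K146Q mean was 83.2% of the WT mean in hypothalamus, 86.1% in pituitary and 60.7% in thyroid, and in each tissue all K146Q mice were below all WT mice. The pituitary log2 fold change of -0.21 was not called (adjusted p = 0.0828), although with library totals taken without the 10 highest genes it was (-0.27, adjusted p = 0.0343), whereas Srp54c fell by 0.72 in the thyroid (adjusted p = 6.49e-04). The difference between these tissues was 0.50 (95% interval 0.28 to 0.72, adjusted p = 0.00274).

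Summed over the 3 copies, Srp54 reached 186, 190 and 197 CPM in the WT hypothalamus and 150, 153 and 126 CPM in the K146Q hypothalamus. In the pituitary the sums were 299, 292 and 331 CPM in WT and 236, 230 and 207 CPM in K146Q mice, and in the thyroid 343, 340 and 302 CPM and 179, 182 and 161 CPM. The K146Q mean was thus 74.8%, 73.1% and 53.0% of the WT mean in the 3 tissues, and mouse 83 was the lowest K146Q mouse in each. Within the sum the values of the copies did not shrink evenly, and these shares rest on how shared reads were divided among the copies. The hypothalamus shares use the same values that chose Srp54a and Srp54b. In the hypothalamus Srp54b made up 35.5% ± 2.18 (SD, n = 3) of the WT sum against 30.2% ± 1.78 (SD, n = 3) of the K146Q sum. Its share was 38.2% ± 0.623 (SD, n = 3) against 31.7% ± 3.86 (SD, n = 3) in the pituitary, and 38.8% ± 1.95 (SD, n = 3) against 30.4% ± 0.616 (SD, n = 3) in the thyroid, without overlap in any tissue. The share of Srp54c was higher in all K146Q than in all WT libraries in each tissue, with means of 40.7% and 45.2%, 41.5% and 49.0%, and 42.0% and 48.1%. The share of Srp54a overlapped between genotypes in each tissue.

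The other genes of the signal recognition particle and its receptor were set beside Srp54. Of the 7 such genes tested, 0 fell and 1 rose in the K146Q pituitary (3.5% of all genes tested there fell and 6.36% rose). Their median log2 fold change was -0.11 beside -0.01 over all genes. The gene that rose was Srp14, which with SRP9 forms the part of the particle that pauses translation (log2 fold change 0.35, adjusted p = 0.0201). Srp72 (-0.23, adjusted p = 0.0578) and Srpr (-0.31, adjusted p = 0.0636) came near a call in the pituitary, and DESeq2 called Srpr (adjusted p = 0.0301). Srp9 (0.14, adjusted p = 0.270) and Srp19 (0.20, adjusted p = 0.231) lay higher there and were not called. In the thyroid, where 18.1% of all genes fell, 4 of the 7 fell, with a median of -0.25 beside -0.03 over all genes. These were Srp9 (-0.37, adjusted p = 0.00869), Srp68 (-0.25, adjusted p = 0.0299), Srp72 (-0.43, adjusted p = 0.00711) and Srpr, the gene of the receptor's alpha subunit (-0.55, adjusted p = 0.00166). In the hypothalamus the median of the 7 was -0.02. The larger thyroid falls of the Srp54 copies therefore stood beside lower values of other genes of the particle, and the part of that in the Srp54 results was not tested.

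Fam177a (55124469 to 55142104, plus strand) and 1700047I17Rik2 (55199592 to 55217168, plus strand) alternate with the Srp54 copies on the chromosome. The deposited reads for the pair were almost the same number in every library, equal in 6 of 18 and never more than 10 reads apart (0.690% of the Fam177a reads at most, out of 218 to 1449 reads), so the 2 genes give 1 measurement and not 2. Fam177a had 34.4, 33.7 and 32.7 CPM in the WT hypothalamus and 25.5, 23.3 and 17.9 CPM in the K146Q hypothalamus. The pituitary values were 22.0, 23.6 and 23.1 CPM in WT and 17.03, 17.2 and 10.9 CPM in K146Q mice. The thyroid values were 80.8, 80.0 and 87.1 CPM in WT and 51.7, 48.5 and 32.2 CPM in K146Q mice. The WT mice lay close together in each tissue, and among the K146Q mice mouse 83 lay well below the others.

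The log2 fold change of Fam177a was -0.62 in pituitary (standard error 0.16, adjusted p = 0.0410) and -0.93 in thyroid (standard error 0.17, adjusted p = 0.00468), and for 1700047I17Rik2 it was -0.62 (adjusted p = 0.0404) and -0.92 (adjusted p = 0.00493). The pituitary call of Fam177a is lost without mouse 1, 2, 43, 60 or 62, with an adjusted p of 0.0522 to 0.108. It is kept without mouse 83 (adjusted p = 0.0460), where the log2 fold change is -0.41. In the thyroid the call is kept without any 1 mouse, between -1.05 and -0.72. The effects in the 2 tissues differed by 0.31 (95% interval -0.24 to 0.86, adjusted p = 0.392), which was not called.

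For the Fam177a pair mouse 83 stood apart from the other K146Q mice in each tissue. As a share of the WT mean, the sum of Fam177a and 1700047I17Rik2 in mice 60, 62 and 83 was 75.9%, 69.3% and 53.2% in the hypothalamus, 74.3%, 75.0% and 47.9% in the pituitary and 62.7%, 58.8% and 38.9% in the thyroid. Srp54b, Fam177a and 1700047I17Rik2 had their lowest K146Q value in mouse 83 in all 3 tissues, a pattern that 8.64% of the 13872 genes showed. The gap was not the same for the Srp54 copies. Srp54b stood in mouse 83 at 52.3%, 48.3% and 38.8% of the WT mean in hypothalamus, pituitary and thyroid, against 68.4%, 70.4% and 43.1% in mouse 60 and 71.0%, 63.9% and 42.2% in mouse 62, so in the thyroid the 3 mice lay close together. Srp54a stood in mouse 83 at 75.2%, 69.0% and 53.3%, against 78.6%, 65.9% and 60.2% in mouse 60 and 76.4%, 73.1% and 65.3% in mouse 62, and in the pituitary mouse 83 lay between the others.

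The genes around the duplicated stretch of chromosome 12 were read beside it, namely the 12 nearest genes tested in all 3 tissues, 6 on either side and within 572 kb. Of these 0 had all K146Q below all WT mice in all 3 tissues, an order so rare over all genes (0.267%) that the count says little about this region. Their log2 differences ran from -0.21 to 0.24 in hypothalamus, from -0.22 to 0.29 in pituitary and from -0.62 to 1.31 in thyroid. In the pituitary 0 of the 12 were called, where 3.5% of all genes fell and 6.36% rose, and in the thyroid 1 fell and 2 rose, where 18.1% and 19.7% did. No test of the members against their neighbours was run. The nearest neighbours were 2700097O09Rik, with log2 differences of -0.06, -0.22 and -0.11 in hypothalamus, pituitary and thyroid, and Baz1a, a chromatin remodelling subunit, with 0.19, 0.05 and 0.15, on one side. On the other side stood Ppp2r3c, a regulatory subunit of protein phosphatase 2A, with -0.00, 0.09 and -0.37, and 1110008L16Rik, with 0.10, 0.16 and -0.04. None of these 4 was called in either tested tissue, though Ppp2r3c came near in the thyroid (adjusted p = 0.0506). Ppp2r3c also holds 30.6% of the 50-base windows of Fam177a, so its own values can rest on shared reads.

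**Figure D2:**
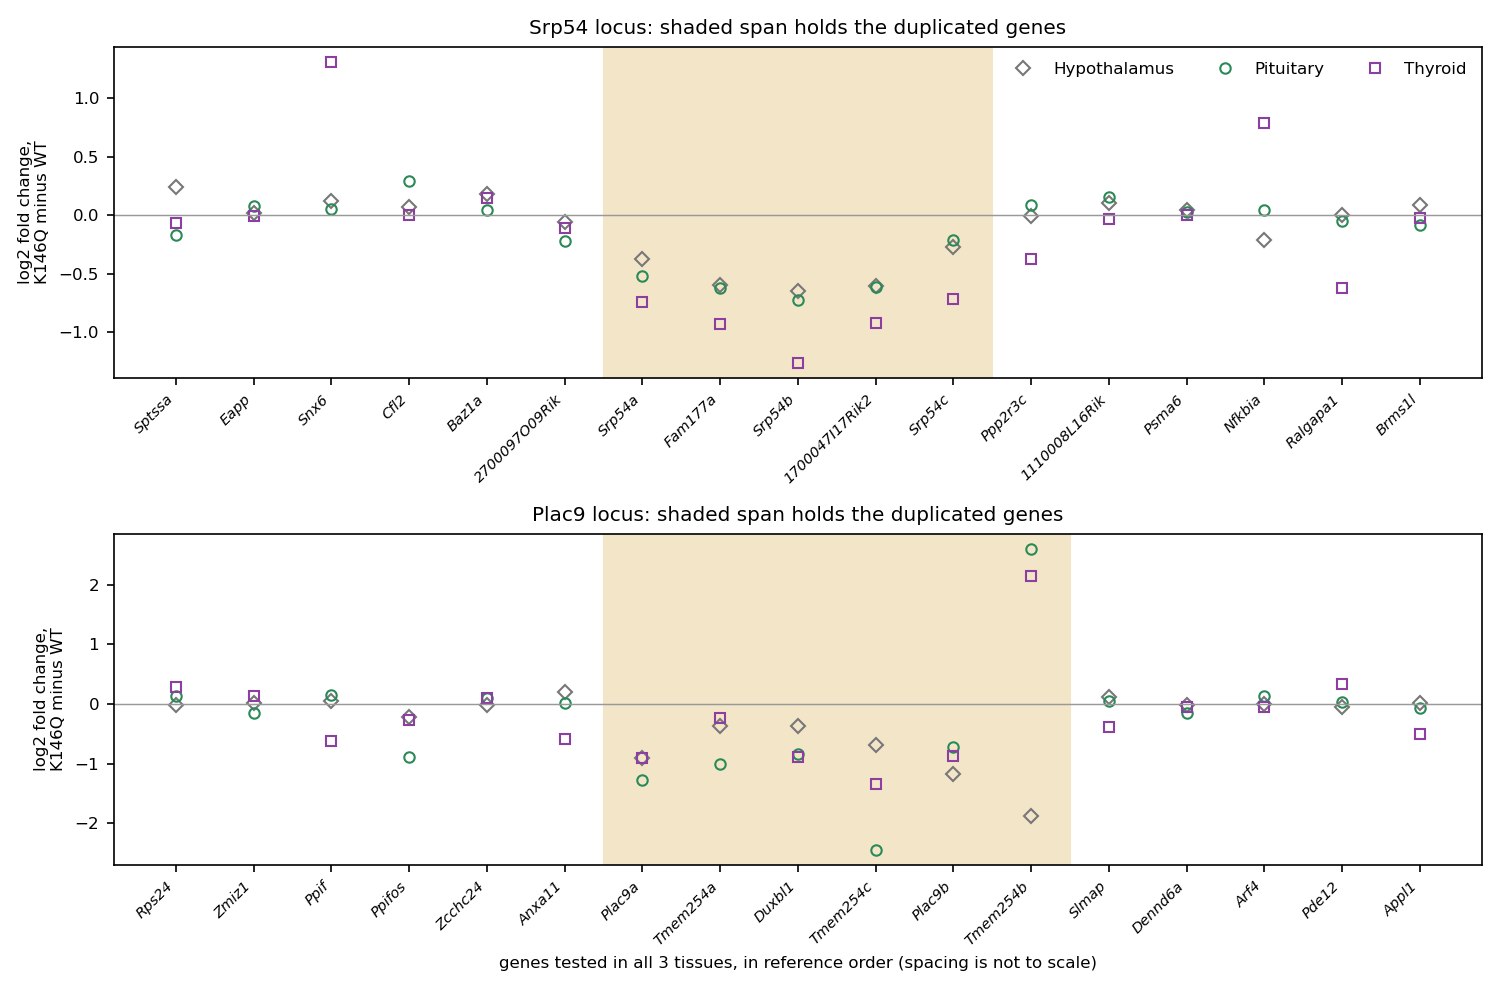
Log2 fold change of K146Q against WT (vertical axis) for genes tested in all 3 tissues in their reference order along the Srp54 locus (top) and the Plac9 locus (bottom), with diamonds for hypothalamus, circles for pituitary and squares for thyroid. The shaded span runs from the first to the last duplicated gene, and at the Srp54 locus its 5 genes lie below 0 in all 3 tissues while neighbours within 572 kb scatter around 0.

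Plac9b (26167405 to 26182480 on chromosome 14, minus strand) was low in every tissue, with 17 to 191 reads per library. Its hypothalamus values were 2.51, 2.66 and 4.35 CPM in WT and 1.09, 1.30 and 0.914 CPM in K146Q mice. Its pituitary values were 2.22, 1.77 and 2.05 CPM in WT and 0.877, 1.02 and 1.204 CPM in K146Q mice, and in the thyroid they were 12.1, 8.16 and 9.86 CPM and 8.08, 4.58 and 3.75 CPM. The genotypes did not overlap, but in the thyroid the highest K146Q mouse (60) came close to the lowest WT mouse (2). The log2 fold change was -0.72 in pituitary (standard error 0.18, adjusted p = 0.0355) and -0.87 in thyroid (standard error 0.27, adjusted p = 0.0399), beside -1.17 in the hypothalamus. The pituitary call is lost without any 1 mouse other than 83 (adjusted p = 0.0590 to 0.140) and the thyroid call without mouse 1, 43, 62 or 83 (adjusted p = 0.0792 to 0.128).

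Plac9a (25887506 to 25903100, minus strand), whose coding sequence is the same, moved with it. Its K146Q mean was 43.7% of the WT mean in hypothalamus, 23.4% in pituitary and 50.5% in thyroid, and it fell by 1.27 in pituitary (adjusted p = 0.0305) and by 0.90 in thyroid (adjusted p = 0.0291), with as few as 3 reads in a pituitary library. These calls are lost without mouse 2, 60, 62 or 83 in the pituitary (adjusted p = 0.0638 to 0.0834) and without mouse 1, 43, 60 or 83 in the thyroid (adjusted p = 0.0563 to 0.0812). The sum of Plac9a and Plac9b was 5.19, 4.91 and 6.38 CPM in WT and 2.47, 2.15 and 1.72 CPM in K146Q hypothalamus. The sum was 3.43, 4.58 and 3.30 CPM in WT and 1.44, 1.53 and 1.35 CPM in K146Q pituitary, and 19.8, 13.5 and 19.3 CPM in WT and 10.7, 9.23 and 7.86 CPM in K146Q thyroid. The K146Q mean of the sum was 38.5%, 38.3% and 52.8% of the WT mean, and the share of Plac9b within it overlapped between genotypes in each tissue.

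The Tmem254 genes, which encode a small membrane protein, lie between and beside the Plac9 copies and are duplicated with them. Values of their single copies swung from library to library, so that Tmem254b held 0 to 61.3 CPM and Tmem254c 28.8 to 141 CPM in the thyroid. The sum of Tmem254a, Tmem254b and Tmem254c was steady: 23.3, 23.0 and 23.3 CPM in WT and 13.7, 11.9 and 12.8 CPM in K146Q hypothalamus. In the pituitary it was 26.2, 26.8 and 26.1 CPM in WT and 16.6, 16.6 and 14.1 CPM in K146Q mice, and in the thyroid 148, 143 and 138 CPM and 97.0, 94.97 and 83.1 CPM. The K146Q mean was 55.2%, 59.8% and 64.2% of the WT mean, with no overlap in any tissue.

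Duxbl1, a homeobox gene inside the stretch, was not called in either tissue (log2 differences of -0.36, -0.84 and -0.89 in hypothalamus, pituitary and thyroid). Of the 11 nearest genes outside the stretch that were tested in all 3 tissues, 0 had all K146Q below all WT mice in all 3, beside 0.267% of all genes. Their median log2 difference was -0.01 in hypothalamus, 0.03 in pituitary and -0.05 in thyroid. In the pituitary 1 was called lower, where 3.5% of all genes were, and in the thyroid 4, where 18.1% of all genes were. The nearest on either side were Anxa11, an annexin gene, with log2 differences of 0.21, 0.02 and -0.58 (adjusted p = 0.00154 in thyroid), and Slmap, a membrane-associated protein gene, with 0.13, 0.06 and -0.39 (adjusted p = 0.0114 in thyroid). The next were Zcchc24 with -0.02, 0.10 and 0.11 and Dennd6a with -0.02, -0.15 and -0.04, neither of them called. The Plac9 copies lie on the same chromosome as Thrb, 7.85 Mb and 8.13 Mb beyond its end, whereas the Srp54 locus is on another chromosome.

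**Figure D3:**
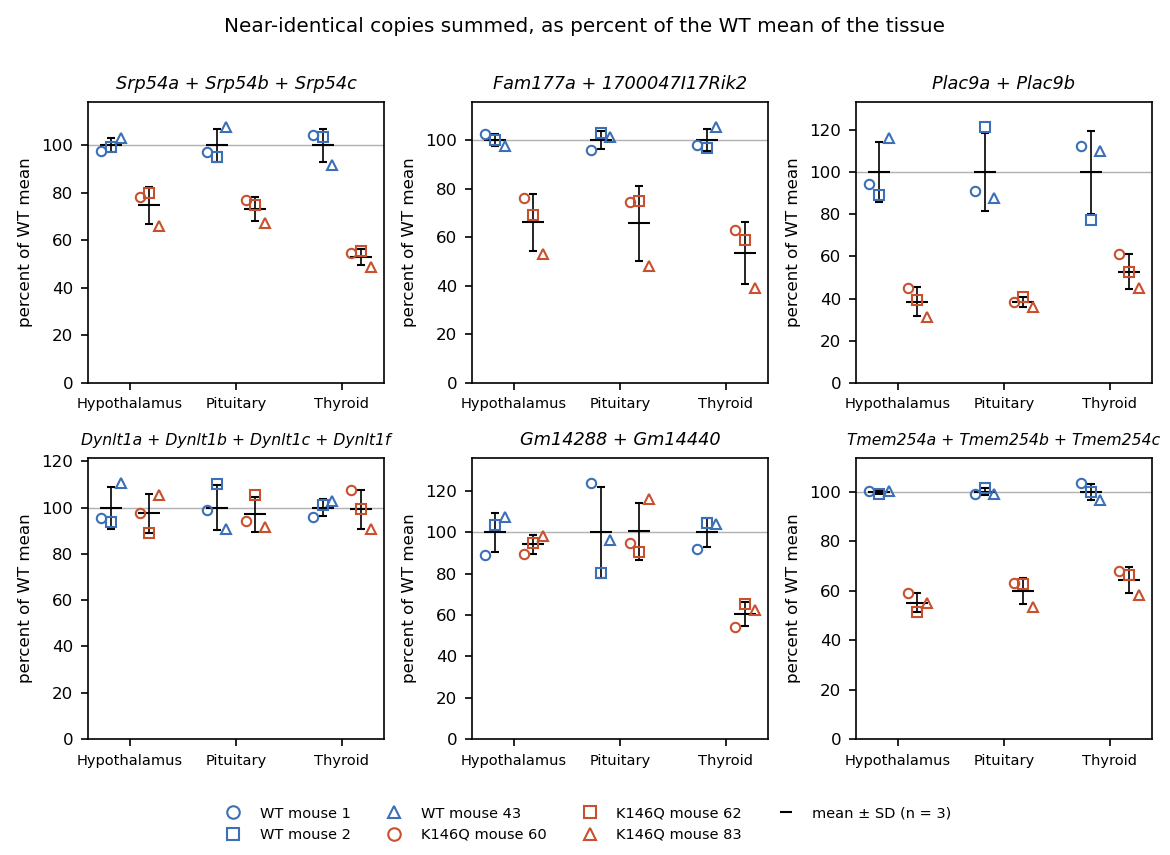
Sums of near-identical copies in each library as percent of the WT mean of the tissue (vertical axes, starting at 0), with blue WT and orange K146Q mice and the mean ± SD of 3 mice. The Srp54, Fam177a, Plac9 and Tmem254 sums of all K146Q mice lie below all WT mice in each tissue, and the Dynlt1 sum overlaps in each, at 97.5%, 97.1% and 99.3% of the WT mean.

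Dynlt1c (6601671 to 6609774 on chromosome 17, plus strand) was not called in pituitary or thyroid. Its hypothalamus values were 6.21, 7.69 and 7.54 CPM in WT and 3.80, 3.30 and 4.89 CPM in K146Q mice. In the pituitary it had 35.6, 34.4 and 25.9 CPM in WT and 36.2, 32.7 and 36.4 CPM in K146Q mice, and in the thyroid 19.0, 28.0 and 20.2 CPM and 26.9, 15.8 and 23.3 CPM. The genotypes overlapped in both of these tissues. The log2 fold change was 0.15 in pituitary (95% interval -0.13 to 0.42, adjusted p = 0.512) and -0.04 in thyroid (95% interval -0.55 to 0.47, adjusted p = 0.903). The hypothalamus difference was -0.77.

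The sum of Dynlt1a, Dynlt1b, Dynlt1c and Dynlt1f was 69.3, 68.1 and 80.1 CPM in WT and 70.9, 64.5 and 76.5 CPM in K146Q hypothalamus, a K146Q mean of 97.5% of the WT mean with overlapping mice. Within that sum Dynlt1c took 9.89% ± 1.24 (SD, n = 3) for WT against 5.63% ± 0.681 (SD, n = 3) for K146Q mice, without overlap, a share computed from the same hypothalamus values that chose the gene. Its shares overlapped in the pituitary (19.6% ± 2.34 against 22.4% ± 2.94, SD, n = 3 each) and in the thyroid (26.6% ± 5.45 against 26.3% ± 6.52, SD, n = 3 each). None of the 4 copies was called in pituitary or thyroid. Among 14 genes of cytoplasmic dynein chains, the 4 Dynlt1 copies included, 2 rose in the pituitary, Dynlt3 (log2 fold change 1.004, adjusted p = 0.00630) and Dynll1 (0.51, adjusted p = 0.0172), and 2 rose in the thyroid, Dynll1 (0.41, adjusted p = 0.0243) and Dync1i1 (2.39, adjusted p = 1.58e-04), while 0 fell. Of all genes tested 6.36% rose and 3.5% fell in the pituitary, and 19.7% rose and 18.1% fell in the thyroid. The genes nearest the Dynlt1 locus on either side were Tulp4 with log2 differences of -0.03, 0.04 and -0.32 in hypothalamus, pituitary and thyroid (adjusted p = 0.0273 in thyroid) and Sytl3 with -0.27, 0.46 and -1.35 (adjusted p = 0.0137 in pituitary).

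Gm14288 (175789357 to 175801093 on chromosome 2, minus strand), a low gene with 32 to 98 reads per library, was not called in pituitary or thyroid. Its hypothalamus values were 4.89, 5.66 and 4.47 CPM in WT and 3.14, 2.101 and 1.72 CPM in K146Q mice. In the pituitary the K146Q mice, at 4.59, 4.59 and 4.67 CPM, were all above the WT mice at 1.78, 3.15 and 3.19 CPM, an order in this direction that 16.7% of genes tested there showed. Its pituitary log2 fold change of 0.71 (95% interval 0.26 to 1.16) was not called (adjusted p = 0.0555), though without mouse 43 it was (0.83, adjusted p = 0.0470). Thyroid values were 4.36, 2.09 and 4.87 CPM for WT and 4.61, 3.64 and 3.81 CPM for K146Q mice, which overlap, and the log2 fold change was 0.14 (95% interval -0.52 to 0.81, adjusted p = 0.720), with the sign turned without mouse 2 (-0.18, adjusted p = 0.475). The pituitary minus thyroid difference of Gm14288 was 0.56 (95% interval -0.24 to 1.36) and not called with all mice (adjusted p = 0.275), but it was called without mouse 2 (1.001, adjusted p = 0.0311).

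The sum of Gm14288 with Gm14440, a copy that was added after the shared sequence was seen, overlapped between genotypes in hypothalamus, where the K146Q mean was 94.2% of the WT mean, and in pituitary, where it was 101%. In the thyroid it was 16.4, 18.5 and 18.5 CPM in WT mice and 9.62, 11.6 and 11.1 CPM in K146Q mice, 60.6% of the WT mean, and Gm14440 itself fell by 1.01 there (adjusted p = 0.00626). The share of Gm14288 in the sum was lower in all K146Q mice in the hypothalamus (means 7.18% and 14.5% in WT) and higher in all K146Q mice in the pituitary (25.0% and 15.6%) and thyroid (37.9% and 21.4%). The hypothalamus share is computed from the same values that chose the gene. A list of 21 tested genes of the surrounding KRAB zinc finger cluster included Gm14288 but not Gm14440. Of these 21, 2 fell and 1 rose in the pituitary, where 3.5% of all genes fell and 6.36% rose. In the thyroid 9 of the 21 fell, where 18.1% of all genes did. The medians were -0.17 beside -0.01 over all genes in pituitary and -0.40 beside -0.03 in thyroid. The nearest tested genes were Gm4724 (0.12, -0.73 and -1.10 in hypothalamus, pituitary and thyroid) and Gm6710 (0.21, -0.66 and -0.79). Gm6710 fell in both tissues (adjusted p = 0.0186 and 0.0228), and Gm4724 in the thyroid (adjusted p = 0.0254).

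**Figure D4:**
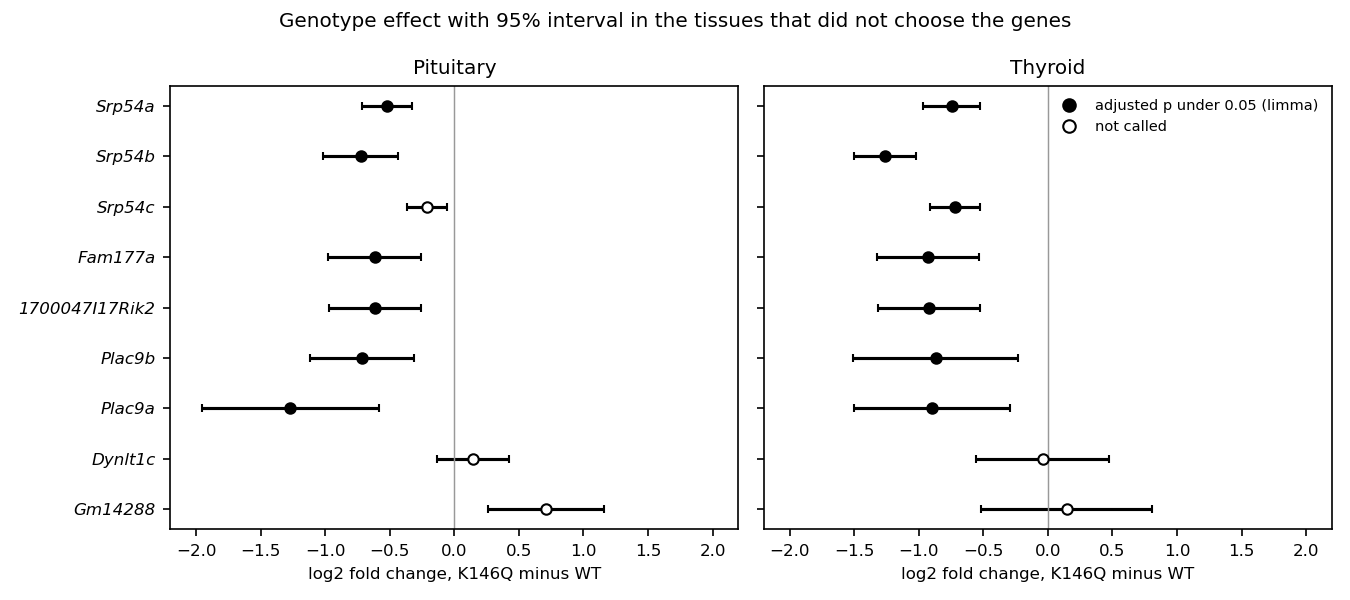
Log2 fold change of K146Q against WT (horizontal axes) in pituitary and thyroid for the 7 genes and their copies Srp54c and Plac9a, with 95% intervals from limma. Filled points have an adjusted p under 0.05, and Dynlt1c and Gm14288 are the members of the 7 with open points in both tissues.

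WT levels of the 7 genes also differed by tissue, as far as values of separately deposited tables can be set side by side. Fam177a was highest in thyroid (mean 82.7 CPM), then hypothalamus (33.6 CPM) and pituitary (22.9 CPM), with no overlap between WT mice of neighbouring tissues, and 1700047I17Rik2 had the same order. Srp54a was lowest in hypothalamus (45.4 CPM), while pituitary (62.5 CPM) and thyroid (62.9 CPM) overlapped, and the same held for Srp54b at 67.8, 118 and 128 CPM. Plac9b was highest in thyroid (10.03 CPM), then hypothalamus (3.17 CPM) and pituitary (2.02 CPM), where the lowest hypothalamus value of 2.51 CPM lay just above the highest pituitary value of 2.22 CPM. Dynlt1c was lowest in hypothalamus (7.14 CPM), and its pituitary (31.9 CPM) and thyroid (22.4 CPM) values overlapped. Gm14288 was highest in hypothalamus by its mean (5.01 CPM), with thyroid (3.77 CPM) overlapping both hypothalamus and pituitary (2.71 CPM).

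For Srp54a, Srp54b, Fam177a and 1700047I17Rik2 the genes most alike in pattern over the 18 libraries were mostly other genes of the same locus. For Plac9b, Dynlt1c and Gm14288 none of the 3 nearest genes was from the same locus. After centring each tissue on its own mean, Fam177a had a Pearson r of 0.999953 with 1700047I17Rik2, 0.93 with Srp54b and 0.90 with Srp54a, and Srp54b had 0.95 with Srp54c and 0.94 with Srp54a. For Srp54a the nearest were Srp54b at 0.94, Cpt2, a mitochondrial carnitine palmitoyltransferase, at 0.91 and Srp54c at 0.91. Plac9b was nearest to Srp54a at 0.82, Dnaic2, an axonemal dynein gene, at 0.82 and 1700047I17Rik2 at 0.80, although it lies on another chromosome. Dynlt1c had R3hcc1l (0.82), Zufsp (0.80) and B430319G15Rik (0.70) and Gm14288 had Mrps18a (0.80), Txn2 (0.79) and Trappc6a (0.79), none of them from their own loci. These are descriptions over 18 libraries of 6 mice that share the genotype difference that chose the genes.

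Of the 37 genes with all K146Q below all WT mice in all 3 tissues, 7 are at the Srp54 and Plac9 loci, namely the 5 members with Srp54c and Plac9a, and 34 genes had all K146Q above all WT mice in all 3. Ranked by the smallest of the 3 log2 differences, Plac9a came first with 0.90, Plac9b next with 0.72 and then Top2a, the proliferation-linked topoisomerase, which was higher in K146Q mice (0.86, 0.68 and 1.57 in hypothalamus, pituitary and thyroid). Srp54b, 1700047I17Rik2 and Fam177a followed. For each of these 3 the smallest difference was that of the hypothalamus, whose values chose the members, so their place is partly fixed by that choice. The same choice enters the count of members among the 37. Other non-members among the first were lower in K146Q mice, namely Cpt1b, a carnitine palmitoyltransferase of muscle (log2 differences of -0.48, -1.40 and -2.75), Gpr179, an orphan receptor (-0.39, -1.22 and -2.92), Morc4 (-0.33, -0.34 and -0.98), the transcription factor Stat5a (-0.33, -0.56 and -0.74) and Prodh, proline dehydrogenase (-0.32, -1.22 and -0.42). Higher in K146Q mice were Cdk5rap1 (0.34, 0.38 and 0.60), Islr2 (0.33, 0.36 and 1.03) and H2-DMb1, a chaperone of MHC class II loading (0.32, 0.78 and 1.36). Of these non-members outside the loci, Gpr179, Stat5a and Prodh were called in both pituitary and thyroid.

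Genes known to differ between C57BL/6 substrains were read beside the strain label. Nnt, in which C57BL/6J mice carry a deletion of several exons, was present in all 18 libraries with at least 546 reads, and its K146Q mean was 36.3 CPM beside 35.4 CPM in WT hypothalamus. In the hypothalamus the 6 genes of this list had log2 differences with a median of 0.04. In the pituitary 1 of the 6, Entpd4, was called (higher, 0.53, adjusted p = 0.0112), where 6.36% of all genes rose. In the thyroid, where 18.1% of all genes fell, 3 fell, namely Nnt (-0.55, adjusted p = 0.00112), Ide (-0.51, adjusted p = 0.00410) and Entpd4 (-0.66, adjusted p = 0.00379). Of the 6, 0 had the same sign of difference in all 3 tissues, beside 27.6% of all genes, and so short a list says little. Gene copy number was not measured in these data, and whether the 2 groups of mice differ in it at the Srp54 and Plac9 loci was not tested.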

How the data were processed

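RNA-Seq values of 18 libraries (3 WT and 3 K146Q mice, each with hypothalamus, pituitary and thyroid) were analysed. The authors deposited, per tissue, a normalized signal in CPM for each of 24054 genes, and 100% of the values were whole multiples of what 1 read is worth (tolerance 0.05 reads), so reads could be recovered. The submitters' processing notes name bcl2fastq 2.17, Bowtie2 2.1.0, RSEM 1.2.15 and mm10 without roles. RSEM is built to divide reads among transcripts they match equally well. The annotation and the normalization software are not given in the sources used here. The authors also deposited log2 fold changes, mean log2 CPM, likelihood ratio scores and p-values of their own comparison, which were not used.

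The test was limma 3.58.1 (R 4.3.3) with a mean-variance trend on log2(CPM + 0.5), each tissue alone, after a filter of at least 0.5 CPM in 3 of 6 libraries, two-sided, with Benjamini-Hochberg adjustment over all genes and a threshold of 0.05. Log2 fold changes on this scale understate the change of low genes. The pituitary and thyroid effects were compared by an interaction contrast over 12 libraries. An exact permutation test of 3 against 3 mice cannot give a p below 0.1. On simulated reads, limma recovered 98% of genes changed by 1 on the log2 scale in the pituitary (15592 genes). It recovered 99% in the thyroid (15220 genes) and 74.5% in the interaction (14355 genes). In the pituitary every member changed by less than that, from -0.73 for Srp54b to 0.71 for Gm14288. In the thyroid only Srp54b changed by more (-1.26), and no interaction difference of a member was larger than the 0.56 of Gm14288. Recovery of such smaller changes, and of genes as low as Plac9b and Gm14288, was not tested. The simulated reads also had the same spread between mice, beyond counting, for every gene. These percentages therefore do not give the power for the members in either tissue or in the interaction. Alternatives were other pseudocounts, filters and scalings, no trend, edgeR 4.0.16 and DESeq2 1.42.0 on the recovered reads, and leaving out each mouse. Same-numbered libraries come from the same mouse by the series' design text, and deviations of same-numbered pituitary and thyroid libraries had an r of 0.05 to 0.23. Nothing says that a library was repeated, so p-values measure the spread between mice.

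Shared sequence was searched in GENCODE M21 transcripts, and coding sequences of the same set (GRCm38, the build of mm10) were compared. The genes named are the 7 members, their copies, the nearest tested neighbours, the 3 genes most alike in pattern, and up to 10 non-members separated between genotypes in all 3 tissues. The members and lists were chosen with earlier results of these data known.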

Additional observations from a re-analysis of the deposited data

Results flagged for a closer look

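The genotype effect of Srp54b differed between pituitary and thyroid by 0.53 on the log2 scale (-0.73 in pituitary and -1.26 in thyroid, adjusted p = 0.0436 by the interaction contrast), which is what singled it out. That of Srp54c differed by 0.50 (-0.21 and -0.72, adjusted p = 0.00274). With the mouse as a block the adjusted p was 0.0365 for Srp54b and 0.00810 for Srp54c. Groups of 3 libraries are too small for a test of single outlying samples, and none was run.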

How the results depend on the processing

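Under median-of-ratios rescaling, with totals without the 10 highest genes and without each mouse in turn, 5 members stayed below all WT mice in all 3 tissues. With 1 mouse left out, the share of all genes in that order was 0.613% to 1.31%, since fewer mice have to be separated, and with totals without the 10 highest genes 67 genes were lower and 18 higher without overlap in all 3 tissues, against 37 and 34. Srp54a and Srp54b were called under every setting in both tissues, with log2 fold changes of -0.58 to -0.52 and -0.78 to -0.71 in pituitary and of -0.84 to -0.73 and -1.36 to -1.25 in thyroid under the settings that kept all mice. The number of members called lower in pituitary was 3 with no filter and 3 without the trend, where Fam177a and 1700047I17Rik2 lost the call, and 2 to 5 without 1 mouse. It was 2 without mouse 1, 2, 43, 60 or 62, where Fam177a, 1700047I17Rik2 and Plac9b lost it, and 5 without mouse 83. Plac9b in pituitary was also not called by DESeq2 (adjusted p = 0.0941), and in thyroid it was not called with no filter, without the trend or by edgeR (adjusted p at most 0.0567). Gm14288 in pituitary was called without mouse 43 (adjusted p = 0.0470), against 0.0680 to 0.166 without any other mouse. The cause of these changes was not tested, beyond the smaller number of mice where 1 was left out.

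Over all genes, the number called in hypothalamus was 9 by DESeq2 and 0 to 6 without 1 mouse (1 without mouse 43 and 6 without mouse 83). In pituitary it was 655 to 1355 without 1 mouse, with 655 without mouse 60 and 790 without mouse 62, against 1537 with all mice. In thyroid it was 3763 to 5243, with 3763 without mouse 62, against 5739. Taking totals without the 10 highest genes moved the median log2 fold change of all genes in the thyroid from -0.03 to -0.12. The pituitary minus thyroid difference called 4200 genes, and 2519 to 3834 without 1 mouse (2519 without mouse 62). With the mouse as replicate block, since the same 6 mice gave both tissues, it called 4432, and no call among the 7 genes and their copies Srp54c and Plac9a changed (adjusted p = 0.0365 for Srp54b and 0.0534 for Fam177a, against 0.392 without the block). Within a tissue no paired analysis was possible because WT and K146Q mice share no number. The Srp54b difference was also not called without the trend (adjusted p = 0.0661). Of 240 values for single genes under settings that kept all mice, 217 stayed on their side of the threshold or within 1 SD, 10 lost a call, 1 gained one and 12 moved by more. Low counts limit Plac9b and Gm14288, with as few as 17 and 32 reads in a library.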
